A study of Mus musculus with 8 samples.

Results

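Expression of 10 acute phase genes was examined in mouse liver after dosing with an antisense oligonucleotide. The genes were lipocalin 2 (Lcn2), the orosomucoids Orm1, Orm2 and Orm3, haptoglobin (Hp), hemopexin (Hpx), the serpins Serpina3n and Serpina3m, inter-alpha-trypsin inhibitor heavy chain 3 (Itih3) and leucine-rich alpha-2-glycoprotein 1 (Lrg1). They were taken by a fixed list of Ensembl gene IDs with these names, which leaves out the serum amyloid A family, and 10 of 10 were found among the 22361 genes of the table. Each was represented by 1 probe set, a group of array probes summarised to 1 value per mouse and named by the Ensembl ID with the ending _at. The study measured liver RNA on 8 Affymetrix arrays, 1 per mouse, from female C57BL/6 mice. One group of 4 mice was injected intravenously with the antisense oligonucleotide SPC3833, a short strand of synthetic nucleic acid designed to pair with an RNA, at 5 mg/kg once a day for 3 days. The other group of 4 mice was injected with saline. The livers were taken on day 3 by the treatment protocol, counting the first dose as day 0, while other labels give 4 days after the first dose. The labels used here do not name the target of SPC3833, and give neither the age of the mice nor an oligonucleotide of unrelated sequence as a control.

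The acute phase response is the change in plasma proteins that follows infection, tissue injury or another inflammatory stimulus. Cytokines, chiefly interleukin-6 signalling through STAT3 and interleukin-1 signalling through NF-kB and C/EBP factors, act on hepatocytes, which then make and secrete more of the positive acute phase proteins. In the mouse, serum amyloid A, haptoglobin, hemopexin, orosomucoid, lipocalin 2 and Serpina3n are among those known to respond in this way.

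Itih3 and Hp were higher with SPC3833 past the threshold used here, in a fit that treated the mice as unpaired: a limma p-value adjusted by Benjamini-Hochberg over all 22361 genes of under 0.05. Itih3 rose 1.39-fold and Hp rose 1.30-fold. Thus 2 of the 10 genes (Hp and Itih3) were called higher and 0 lower, against 2.33% of all genes called higher and 1.74% called lower. Orm2, Lcn2 and Orm3 had the largest differences, at 2.67-fold, 2.14-fold and 1.74-fold, and also the largest SD between the mice given SPC3833, and none of these 3 passed. Serpina3m was at 0.989-fold, with a 95% interval of 0.878 to 1.11. Neither Hp (adjusted p = 0.104) nor Itih3 (adjusted p = 0.0520) passed when limma was run with an intensity trend, which lets the variance depend on expression.

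Of the 10 genes, 9 had a mean above that of saline (58.9% of all genes did), and the same 9 had an unadjusted p under 0.05 in the higher direction, as 10.9% of all genes did. The median log2 fold change was 0.41 over the 10 genes and 0.03 over all genes. The 10 genes were chosen with earlier results of these data known, so these comparisons describe the list and do not test it. These 10 values come from the same 8 livers and are not independent of each other: saline array 1 held the lowest value of all arrays for 8 of the 10 genes. How often it did so over all genes was not tested. Without saline array 1, 3 of the 10 had an unadjusted p under 0.05 (9.51% of all genes) and the median log2 fold change was 0.32. Without SPC3833 array 4 the count was 5 (11.0% of all genes) and the median 0.36. The count was also 5 without SPC3833 array 1 (10.7%), without SPC3833 array 2 (9.35%) and with robust variances (10.8%), and it was 4 with medians aligned (7.70%) and with array weights (11.1%).

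**Figure D1:**
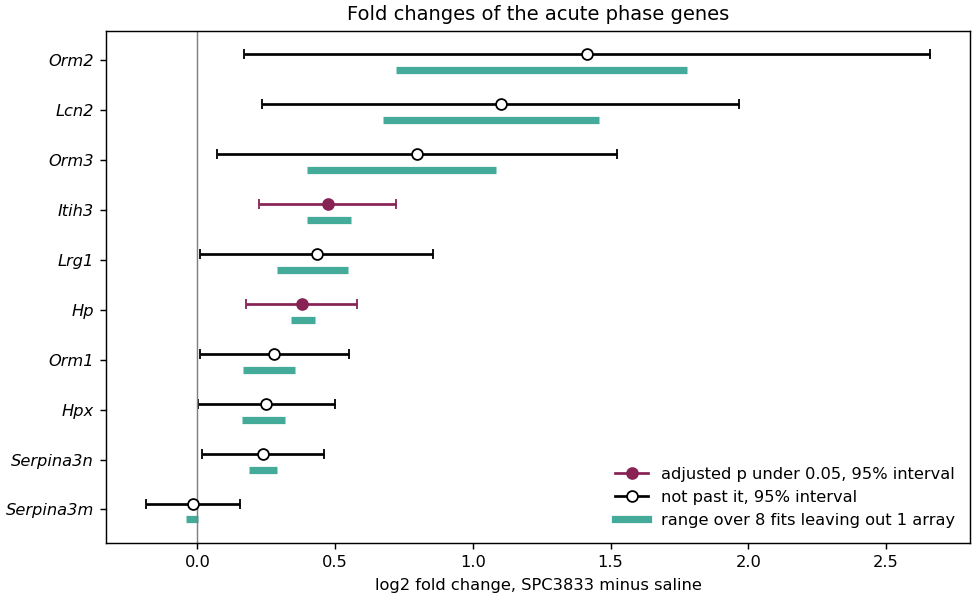
Log2 fold change of each acute phase gene, SPC3833 minus saline, with its 95% interval from limma (n = 4 mice per group); filled points passed an adjusted p of 0.05, and green bars span the fits that left out 1 array. Itih3 and Hp passed with narrow intervals, while Orm2 and Lcn2 had larger differences and wide ones.

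The sequences just upstream of the genes are shown for Orm2, Orm3 and Lcn2, the 3 members with the largest differences and the largest SD between mice given SPC3833. Of the 10 symbols, 7 matched an entry of the RefSeq promoter table (build GRCm38.p6), and Orm1, Hp and Serpina3m did not. The 250 bases before each gene start are printed on the strand of the gene, with matches to the C/EBP motif TTGCNNAA and to the TATA box TATAAA in capitals.
Orm2 (chr4:63362199-63362448, plus strand): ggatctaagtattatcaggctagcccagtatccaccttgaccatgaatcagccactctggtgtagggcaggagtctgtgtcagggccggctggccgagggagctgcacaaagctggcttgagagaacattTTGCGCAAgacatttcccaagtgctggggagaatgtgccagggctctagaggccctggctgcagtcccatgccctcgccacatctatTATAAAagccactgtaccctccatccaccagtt
Orm3 (chr4:63355908-63356157, plus strand): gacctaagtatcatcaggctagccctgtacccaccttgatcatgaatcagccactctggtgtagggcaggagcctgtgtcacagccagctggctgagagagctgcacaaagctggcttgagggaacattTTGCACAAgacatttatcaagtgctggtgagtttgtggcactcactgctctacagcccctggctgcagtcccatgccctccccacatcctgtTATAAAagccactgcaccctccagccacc
Lcn2 (chr2:32387740-32387989, minus strand): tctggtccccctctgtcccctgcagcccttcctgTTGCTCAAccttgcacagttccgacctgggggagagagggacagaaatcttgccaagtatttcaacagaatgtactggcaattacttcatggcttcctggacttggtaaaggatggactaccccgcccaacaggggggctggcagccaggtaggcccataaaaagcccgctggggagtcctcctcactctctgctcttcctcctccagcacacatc

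The upstream sequences of Orm2 and Orm3 were identical at 218 of 250 bases (87.2%) in a global alignment, while all other pairs among the 7 genes matched at 58.8% or less. In the RefSeq gene table, Orm1, Orm3 and Orm2 follow each other on chromosome 4 with no other protein-coding gene between them, and Serpina3m and Serpina3n are likewise neighbours on chromosome 12. The C/EBP match read TTGCGCAA in Orm2, starting at -120 relative to the gene start, and TTGCACAA in Orm3, starting at -121. It read TTGCTCAA in Lcn2. Over windows of 300 bases, which add the first 50 bases of the gene, 4 of the 7 members held TTGCNNAA on either strand (Lcn2, Orm2, Orm3 and Hpx), as did 10.8% of the 32851 windows in the table. TATAAA was present in 4 of 7 (Orm2, Orm3, Itih3 and Lrg1) and in 13.6% of all windows. In Itih3 and Lrg1 it lay after the gene start, 4 and 12 bases in. Since the upstream sequences of Orm2 and Orm3 are so alike, their matches to TTGCNNAA and TATAAA are not separate cases. The other motifs were that of NF-kB, searched as GGG and CC with 5 bases of any kind between them (4 of 7, 50.8% of all windows), CTGGGAA for the type 2 interleukin-6 element (2 of 7, 11.1%), TGTTCT for the glucocorticoid receptor (2 of 7, 19.0%) and TTCNNNGAA for STAT (0 of 7, 8.30%). No match of one motif overlapped a match of another. A match describes the letters in the window and does not show binding, and a missing match says only that the letters are not in this window.

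The orosomucoids are abundant plasma glycoproteins that bind basic and lipophilic compounds, including many drugs. Orm2 (ENSMUSG00000061540_at) was at 7.28, 8.44, 8.21 and 8.46 on saline arrays 1 to 4 (log2 expression) and at 8.54, 9.50, 8.42 and 11.59 on SPC3833 arrays 1 to 4. SPC3833 array 4 stood 3.49 above the saline mean, an 11.3-fold difference, SPC3833 array 2 was 2.64-fold above it, and arrays 1 and 3 lay close to the upper saline values. The groups overlapped, as SPC3833 array 3 lay below saline arrays 2 and 4. The means were 8.10 ± 0.56 and 9.51 ± 1.47 (SD, n = 4 each). The log2 difference of 1.41 had an SE of 0.570 and a 95% interval of 0.17 to 2.66 (limma adjusted p = 0.219). That difference was the 10th largest rise in mean among 22361 genes, and the SD between mice given SPC3833 was the 3rd largest. Without SPC3833 array 4 the log2 fold change was 0.72 (limma adjusted p = 0.278).

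Orm3 (ENSMUSG00000028359_at) was at 6.61, 6.72, 6.28 and 6.83 with saline and at 7.31, 7.17, 6.54 and 8.61 with SPC3833. As for Orm2, SPC3833 array 4 was highest and SPC3833 array 3 lay within the saline range. The log2 difference was 0.80 (SE 0.332, limma adjusted p = 0.236) with a 95% interval of 0.07 to 1.52, and it was 0.40 without SPC3833 array 4. Orm1 (ENSMUSG00000039196_at) was at 11.48, 11.94, 11.94 and 11.94 with saline and at 12.14, 12.18, 11.88 and 12.22 with SPC3833. Here 3 of the 4 SPC3833 arrays lay above every saline array, and saline array 1 alone lay far below the rest. The log2 difference of Orm1 was 0.28 (SE 0.124, limma adjusted p = 0.272) with a 95% interval of 0.01 to 0.55, and 0.16 without saline array 1. The 3 orosomucoid genes are close in sequence, and how far the probes of one detect the RNA of another was not tested.

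Lipocalin 2 binds bacterial siderophores and so withholds iron from bacteria, and it is made by hepatocytes in the acute phase and by neutrophils. Lcn2 (ENSMUSG00000026822_at) was at 9.31, 8.81, 8.86 and 9.79 with saline and at 10.34, 10.04, 9.22 and 11.58 with SPC3833. SPC3833 arrays 1, 2 and 4 lay above all saline arrays, and array 3 lay within them. Array 4 was 5.21-fold above the saline mean, arrays 1 and 2 were 2.22-fold and 1.80-fold above it, and array 3 was at 1.02-fold. The means were 9.19 ± 0.46 and 10.30 ± 0.98 (SD, n = 4 each). Their difference of 1.10 had an SE of 0.396 and a 95% interval of 0.23 to 1.97 (limma adjusted p = 0.162). This was the 21st largest rise in mean of 22361 genes. Without SPC3833 array 4 the log2 fold change was 0.67 (limma adjusted p = 0.264), and without SPC3833 array 3 it was 1.46 and passed the threshold (limma adjusted p = 0.0415). Whole liver was measured, so more cells of a type and more RNA per cell cannot be told apart, and the part of neutrophils in the Lcn2 values was not tested.

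**Figure D2:**
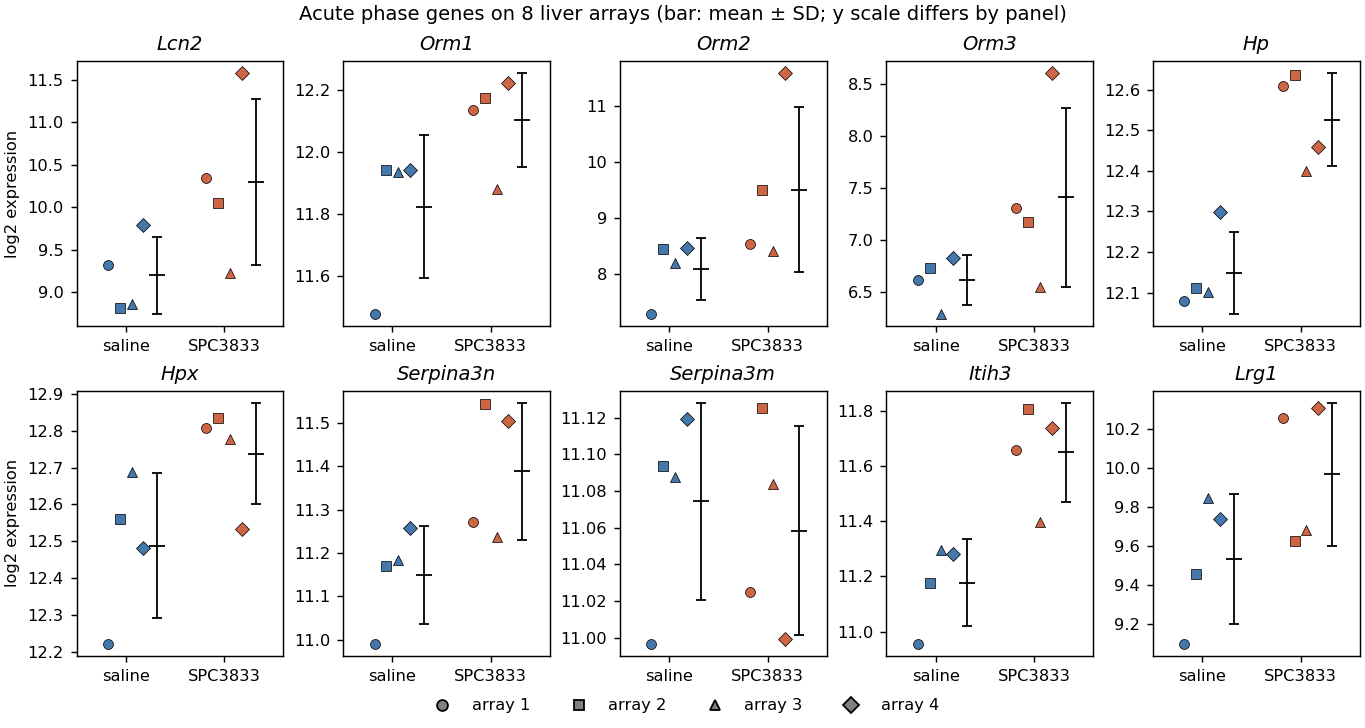
Log2 expression of the 10 genes on each array (symbols mark array numbers 1 to 4 within a group, which were not used as pairs), with the mean ± SD of each group (n = 4); each panel has its own y scale. For Orm2, Orm3 and Lcn2, SPC3833 array 4 stands above the other SPC3833 arrays, while for Hp and Itih3 all SPC3833 arrays lie above all saline arrays.

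Haptoglobin binds free haemoglobin, and hemopexin binds free heme, so that both keep iron-containing molecules released by red cells from causing oxidative damage. Hp (ENSMUSG00000031722_at) was at 12.08, 12.11, 12.10 and 12.30 with saline and at 12.61, 12.64, 12.40 and 12.46 with SPC3833. All SPC3833 arrays lay above all saline arrays, by 0.10 at the nearest. The means were 12.15 ± 0.10 and 12.53 ± 0.11 (SD, n = 4 each). The log2 difference was 0.38, with an SE of 0.0917 and a 95% interval of 0.18 to 0.58 (limma adjusted p = 0.0428). A two-sided exact permutation test gave p = 0.0286, and no smaller value is possible with 4 mice in each group. Of the 22361 genes, 7.34% had all SPC3833 values above all saline values, as Hp and Itih3 did. Hp no longer passed when saline array 1, 2 or 3 or SPC3833 array 1, 2 or 4 was left out, with adjusted p of 0.0621 to 0.121 in those fits and log2 fold changes of 0.34 to 0.40.

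Hpx (ENSMUSG00000030895_at) was at 12.22, 12.56, 12.69 and 12.48 with saline and at 12.81, 12.83, 12.78 and 12.53 with SPC3833. SPC3833 arrays 1 to 3 lay above every saline array and array 4 among them. The log2 difference was 0.25 (SE 0.113, limma adjusted p = 0.285) with a 95% interval of 0.0022 to 0.50, and 0.16 without saline array 1.

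Itih3 (ENSMUSG00000006522_at) is a heavy chain that is joined to the protease inhibitor bikunin in plasma and can be transferred to hyaluronan, where it stabilises the extracellular matrix. Its values were 10.96, 11.17, 11.30 and 11.28 with saline and 11.66, 11.81, 11.40 and 11.74 with SPC3833, so the groups did not overlap. The means were 11.18 ± 0.16 and 11.65 ± 0.18 (SD, n = 4 each). Their difference was 0.47, with an SE of 0.113 and a 95% interval of 0.23 to 0.72 (limma adjusted p = 0.0404). This was the smallest adjusted p of the 10 genes, and the two-sided exact permutation p was again 0.0286. Leaving out any array other than SPC3833 array 3 took Itih3 out of the calls, at adjusted p of 0.0642 to 0.114, with log2 fold changes of 0.40 to 0.51.

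Serpina3n (ENSMUSG00000021091_at), a secreted inhibitor of serine proteases of leukocytes, was at 10.99, 11.17, 11.18 and 11.26 with saline and at 11.27, 11.54, 11.24 and 11.50 with SPC3833. SPC3833 array 3 lay just below the highest saline array and the other SPC3833 arrays above it. The log2 difference was 0.24 (SE 0.101, limma adjusted p = 0.248) with a 95% interval of 0.02 to 0.46. Its neighbour Serpina3m (ENSMUSG00000079012_at), another serpin of the same cluster, ran from 11.00 to 11.12 with saline and from 11.00 to 11.13 with SPC3833. Its log2 difference was -0.02 (SE 0.0787, limma adjusted p = 0.961). The 95% interval ran from -0.19 to 0.16, that is, from 0.878 to 1.11 times the saline level. Whether Serpina3n and Serpina3m differ in their change was not tested.

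Lrg1 (ENSMUSG00000037095_at), a secreted glycoprotein that modulates TGF-beta signalling in blood vessels, was at 9.10, 9.45, 9.84 and 9.74 with saline and at 10.26, 9.62, 9.68 and 10.31 with SPC3833. SPC3833 arrays 1 and 4 lay above all saline arrays and arrays 2 and 3 among them. The log2 difference was 0.43 (SE 0.193, limma adjusted p = 0.276) with a 95% interval of 0.01 to 0.86, and 0.29 without saline array 1. For the 8 genes other than Hp and Itih3, the two-sided exact permutation p ran from 0.0571 for Serpina3n to 0.743 for Serpina3m.

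**Figure D3:**
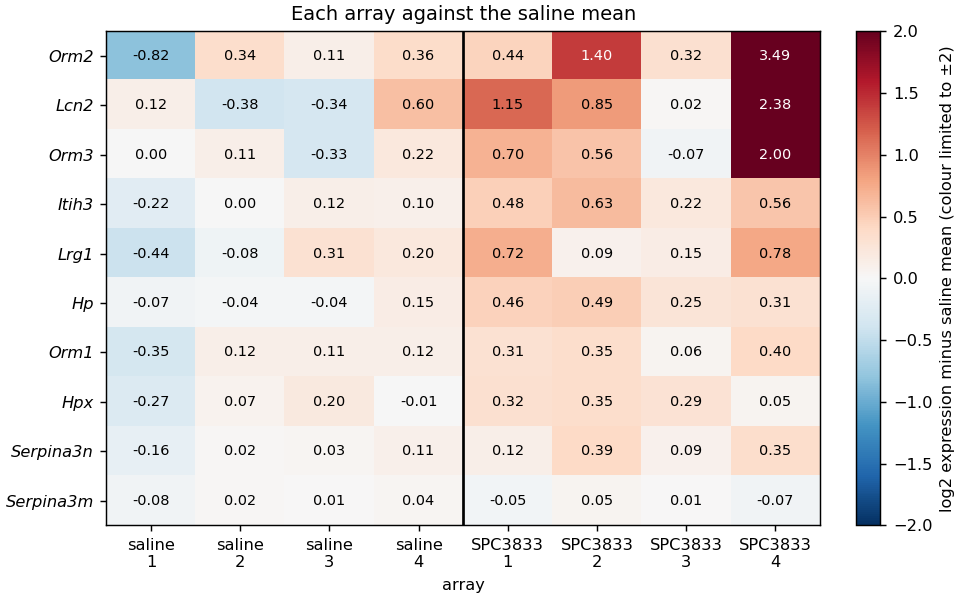
Log2 expression of each gene on each array minus the saline mean of that gene; red is above and blue below the saline mean, with colour limited to 2 in either direction. SPC3833 array 4 shows 3.49 for Orm2, 2.38 for Lcn2 and 2.00 for Orm3, and saline array 1 is below the saline mean for 9 of the 10 genes.

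The mice given SPC3833 differed in how far the 10 genes lay above saline. Averaged over the 10 genes, SPC3833 arrays 1 to 4 stood 0.47, 0.52, 0.13 and 1.02 above the saline means on the log2 scale, while saline arrays 1 to 4 stood at -0.23, 0.02, 0.02 and 0.19. SPC3833 array 3 was nearest to saline, held the lowest SPC3833 value for 7 of the 10 genes and lay above the saline mean for 9 of the 10. The smallest of those 9 deviations were 0.01 for Serpina3m and 0.02 for Lcn2. Over all genes the median deviation on that array was 0.02. The high mean of array 4 came from Orm2, Orm3 and Lcn2, which averaged 2.62 above saline there, against 0.34 for the other 7 genes. On SPC3833 arrays 1 and 2 those 7 genes also averaged 0.34 above saline, and on array 3 they averaged 0.15. These averages were not corrected for the shifts of whole arrays described below, which differ between the arrays. Array 4 was the highest SPC3833 array for 5 genes (Lcn2, Orm1, Orm2, Orm3 and Lrg1) and array 2 for the other 5.

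The arrays also differed as a whole. SPC3833 array 4 read lower than saline across bright genes: its median deviation was -0.27 over the 155 genes with a saline mean of 11 to 12 and -0.35 over the 54 genes at 12 to 13, the range of Hp and Hpx. SPC3833 array 2 read higher, by 0.13 in each of these ranges. For saline array 1 the median deviations in these ranges were -0.06 and -0.04. The part of these shifts in the values of Hp, Hpx, Orm1, Itih3 and the serpins was not tested. After quantile normalization, which gives all arrays the same distribution, the log2 fold change of Hp was 0.47 (limma adjusted p = 0.0273) and that of Itih3 was 0.49 (limma adjusted p = 0.0512). With arrays centred on their medians, neither Hp (0.34, limma adjusted p = 0.0736) nor Itih3 (0.43, limma adjusted p = 0.0747) passed.

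**Figure D4:**
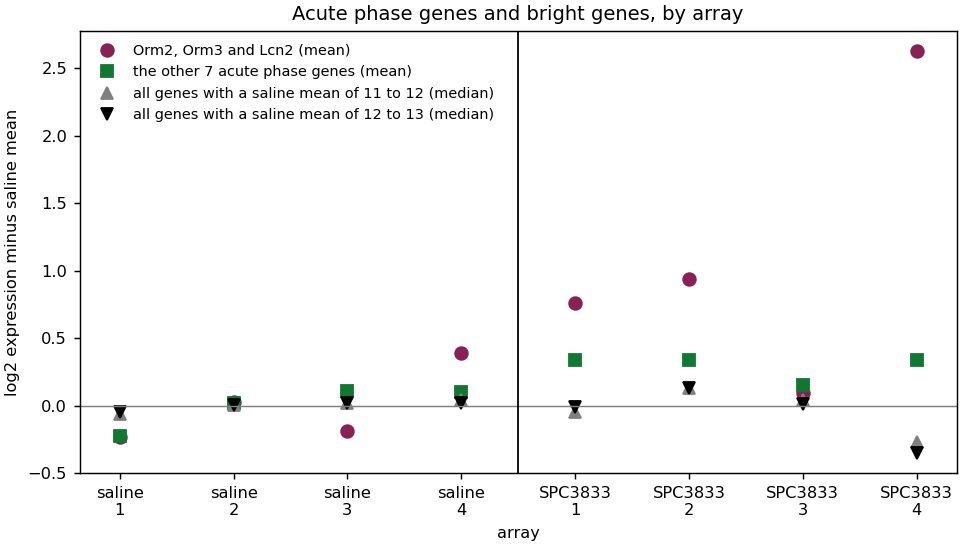
Mean deviation from the saline mean, in log2 units, of Orm2, Orm3 and Lcn2 (circles) and of the other 7 acute phase genes (squares), beside the median deviation of all genes with a saline mean of 11 to 12 or 12 to 13 (triangles), for each of the 8 arrays. On SPC3833 array 4 the first 3 genes averaged 2.62 while the bright genes lay below 0.

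The spread of Orm2, Lcn2 and Orm3 between mice was wide relative to other genes. Among the mice given SPC3833, their SD ranked 3rd, 28th and 46th of 22361 genes. Among the saline mice, Orm2 ranked 144th, Lcn2 300th and Orm3 2775th. The SD with SPC3833 was 2.64 times that with saline for Orm2, 2.13 times for Lcn2 and 3.64 times for Orm3. Without SPC3833 array 4 the SD of the other 3 SPC3833 mice was 0.59 for Orm2, 0.58 for Lcn2 and 0.41 for Orm3. The SD was higher with SPC3833 for 8 of the 10 genes, and for 59.5% of all genes. For Serpina3m, Lrg1, Hp and Itih3 it was only 1.06 to 1.14 times that with saline, and for Orm1 and Hpx it was lower. The median SD of the 10 genes was 0.214 with saline and 0.169 with SPC3833, against 0.127 and 0.151 over all genes.

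How the genes varied together between mice of the same group differed from pair to pair. Deviations from the group means were compared over the 8 arrays for the 45 pairs of genes, as a description, since all pairs share the arrays. The median Pearson correlation was 0.45, and 38 of the 45 pairs were above 0. How this compares with pairs of other genes of similar brightness, which share the shifts of whole arrays, was not tested. The lowest were Lcn2 with Hpx (-0.58) and Orm3 with Hpx (-0.56), followed by Lcn2 and Orm3 with Serpina3m (-0.46 each). Within groups of few mice, Lcn2 and Orm3 with Hpx gave -0.48 and -0.42 with saline, and -0.80 and -0.86 with SPC3833. With Serpina3m, Lcn2 and Orm3 gave 0.08 and 0.20 with saline, and -0.73 and -0.71 with SPC3833. The part of the shifts of whole arrays in these low values was not tested. Over the 8 arrays, the highest correlation was between Lcn2 and Orm3 (Pearson 0.93, Spearman 0.76). It was 0.62 without the 2 arrays farthest from the median of Lcn2. Orm1 with Itih3 gave 0.91 (Spearman 0.38) and fell to 0.18 without the 2 arrays farthest for Orm1, so it rests on those. Serpina3n with Itih3 gave 0.88 (Spearman 0.86), and 0.76 without 2 arrays. Leaving out 2 arrays in this way brought the median over the pairs to 0.15, with 26 of the 45 above 0.

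Among the other 22351 genes, the closest to the mean deviation of the 10 genes were ENSMUSG00000061650 (Pearson 0.991, Spearman 0.976) and ENSMUSG00000026248 (Pearson 0.989, Spearman 1.00), over 8 arrays. These are the highest of a search over all genes. ENSMUSG00000026248 rose from 7.20 ± 0.15 to 7.76 ± 0.24 (SD, 4 mice in each group), by 0.55 on the log2 scale (limma adjusted p = 0.0331). For ENSMUSG00000061650 the log2 fold change was 0.10 (limma adjusted p = 0.708). The files do not pair these IDs with names.

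**Figure D5:**
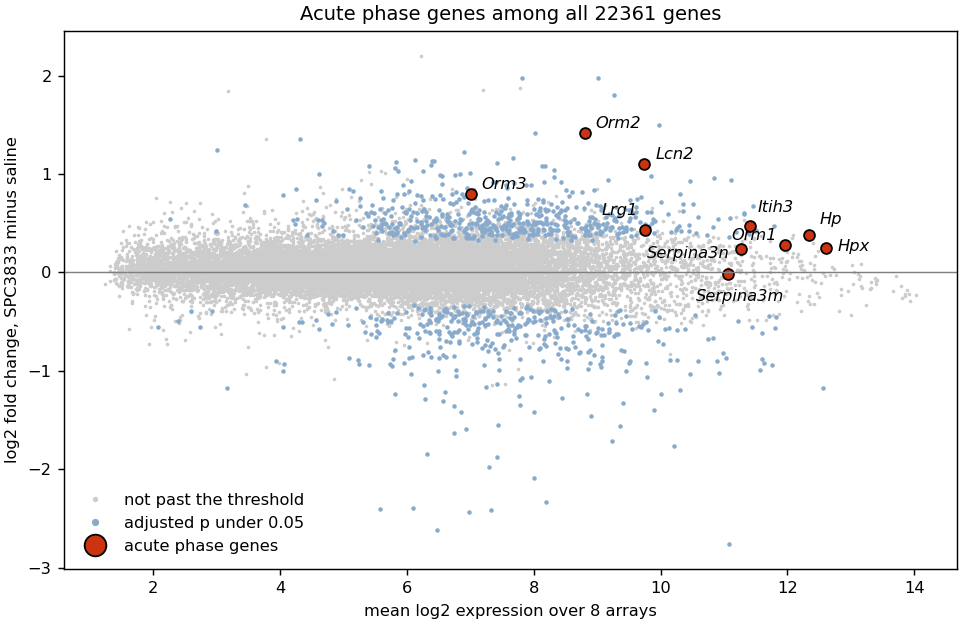
Log2 fold change against mean log2 expression for all 22361 genes (grey and blue points, blue for an adjusted p under 0.05), with the 10 acute phase genes in red. Of the red points, 9 lie above 0, and Orm2, Lcn2 and Orm3 lie farthest from it.

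Averaged over all genes, 7 arrays read 5.77 to 5.80 and SPC3833 array 2 read 5.88, while the highest value was 13.20 on SPC3833 array 4 against 14.06 to 14.18 elsewhere. The Pearson correlation across genes was 0.981 to 0.993 for all pairs of arrays. The share of all genes called higher depended on the scaling, with 2.33% for the deposited values and 2.03% with quantile normalization. It was 1.23% where medians were aligned and 1.96% where 75th percentiles were aligned.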

How the data were processed

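Values are those the authors deposited, log2 expression in 1 table with a column per array and no gap; the log2 scale was inferred from the range. The submitters' processing notes name the affy package. Background correction, normalization, probe set definition and build are not given in the sources used here, and the number of arrays limits the precision. The members and lists were chosen with earlier results of these data known. The members' names come from that choice: 0 of the 22361 Ensembl IDs matched the RefSeq gene table, so the remaining lists (pathway genes, markers of cell types) were not analysed here, and the liver label was not checked against markers.

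Groups came from the titles. Biological replicates are named there, and no 2 arrays shared over 0.134% of identical values. The groups were tested with limma (version 3.58.1, under R 4.3.3), two-sided, with no filter or covariate, and p-values were adjusted by Benjamini-Hochberg over all genes. The fit was tested on simulated data. Exact permutation tests used all 70 assignments of the arrays. Named were all members and the genes most like their mean deviation, at most 2 where IDs have no name. Promoters were aligned with Biopython 1.88, and figures drawn with matplotlib 3.10.9. The alternatives were other scalings, filters, variance settings, thresholds, a replicate block and left-out arrays.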

Additional observations from a re-analysis of the deposited data

Results flagged for a closer look

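Among 22 sets of 4 values, 2 held an array set apart from the others, and chance gives about 1 in 20. Orm1 on saline array 1 was at 11.48, against 11.94 on each of the other saline arrays. Hp on saline array 4 was at 12.30, against 12.08 to 12.11 on the other saline arrays and 12.40 on the lowest SPC3833 array.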

How the results depend on the processing

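The fits without SPC3833 array 4 and saline array 1 together, and the count without Orm1 (2 changed), were chosen after seeing the data. As deposited, 2 of the 10 genes changed, both higher, and 4.07% of all genes changed in either direction. The count changed, all higher, was 1 after quantile normalization (Hp, 4.77% of all genes) and with array weights (Hp, 4.63%). It was also 1 with the replicate block (Lcn2, 3.83%). It was 0 after centring on the median (3.41%), with an intensity trend (5.15%) and at adjusted p under 0.01 (1.32%). Without SPC3833 arrays 2 and 4 (2.44%), and without SPC3833 array 4 and saline array 1 (1.57%), it was 0 too. Leaving out 1 array gave 0 to 3, beside 2.09% to 4.32% of all genes. The count of 3 (Lcn2, Hp and Itih3) came without SPC3833 array 3 (3.41%). None of the 10 genes was called lower in any fit. The count higher at an unadjusted p under 0.05 was 9 as deposited (10.9% of all genes) and 4 with array weights (11.1%). With robust variances it was 5 (10.8%), and with medians aligned 4 (7.70%). It was 3 without SPC3833 arrays 2 and 4 (8.37%), and 3 without SPC3833 array 4 and saline array 1 (10.3%). With 1 array left out it was 3 to 8 (9.06% to 11.0%). The cause of these shifts was not tested. The median log2 fold change of the 10 genes was 0.30 to 0.47 over the 19 alternative fits. In those fits Hp passed in 8, Itih3 in 5, Lcn2 in 2 and the other 7 in 0. All 9 genes above saline stayed above it in each fit, and Serpina3m ran from -0.042 to 0.00375 with 1 array left out, above 0 without SPC3833 array 4. The filter, intensity trend, robust variance and replicate block fits keep the deposited log2 fold changes, so no sign could change in them.

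The mice were treated as unpaired. Over all genes, deviations of same-numbered arrays correlated at 0.159, 0.0429, -0.0304 and 0.145, with 2 of 4 pairs over 0.1 and 5 of 8 arrays closest to their own number. Over the 10 genes alone the same correlations were 0.622, 0.359, 0.563 and 0.784. These come from the data and not from the design. Arrays of different numbers were not compared over these 10 genes, so the values cannot show pairing. With the replicate block the SE of Lcn2 was 0.191 against 0.396 without it, and Lcn2 passed (limma adjusted p = 0.0202), while Hp (0.0736) and Itih3 (0.0592) did not. The table gives no background signal, so whether low signal limits a value was not tested. The width of the intervals depends on the 4 mice per group and on the spread of each gene between mice.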
